A study of Mus musculus with 12 samples.

Results

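The hippocampus of mice after chronic stress was compared with that of unstressed mice, gene by gene, in 8 of the 12 poly(A) RNA-seq libraries of the study. The members are the 4 libraries labelled Model and the 4 labelled Control. Both groups were male C57BL/6 mice, 6 to 8 weeks old at purchase, which had acclimated for 7 days and had been admitted by their preference for sucrose. Model mice then went through 28 days of chronic unpredictable mild stress, in which a different mild stressor (wet bedding, a tilted cage, tail clamping, lost sleep or food and others) was given each day, and were given saline. Control mice were given saline without stress. All libraries carry the same batch label. The 4 Treatment libraries came from stressed mice that were also given poricoic acid A. They entered the filter on low counts, the scaling, the estimate of the spread and the slope of the choroid plexus covariate used below. The labels give 4 per group without tying each library to its own animal, so the tests measure only how these samples vary, which may be technical. No behaviour of the mice is among the data used here.

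Chronic unpredictable mild stress is a rodent model of depression, and the hippocampus is a region rich in receptors for stress hormones. Cells meet unfolded proteins in the endoplasmic reticulum (ER) with the unfolded protein response, in which the sensors Ire1, Atf6 and Perk raise chaperones through the factors Xbp1, cleaved Atf6 and Atf4. Unfolded proteins of the cytosol are met by heat shock factor and the Hsp70 and Hsp90 chaperones. Neuronal firing is followed by immediate early genes such as Fos and Egr1 and then by effectors at the synapse.

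A library held between 17083260 and 27479083 estimated counts. Levels are given as CPM, counts scaled to a common library size, and changes as log2 fold changes of Model over Control ± SE from edgeR's quasi-likelihood test, with Benjamini-Hochberg adjusted p over the 18600 genes that passed a filter on low counts. A gene is said to have risen or fallen when its adjusted p was under 0.05. Markers of the labelled tissue were present in every library: Prox1, the factor of dentate granule cells, lay at 117 to 154 CPM in Control and 136 to 175 CPM in Model, and Wfs1, a marker of CA1 pyramidal cells, at 115 to 133 and 103 to 177 CPM. RNA of neighbouring tissue was uneven. Choroid plexus markers were high in Control 1, 2 and 3, and thalamus and habenula markers in Control 1 and Model 2, as described with those genes.

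Stressed hippocampus had more RNA of chaperones of the ER and the cytosol, of a few activity-regulated genes and of the corepressor Cbfa2t3. It had less RNA of the cold-inducible Cirbp and Rbm3, of the microRNA hosts Lncppara and A330023F24Rik, and of single genes of the choroid plexus and extracellular matrix. In all 147 genes passed, which is 0.79% of those tested. Of these, 63 rose (0.339%) and 84 fell (0.452%). Counts of list members given below stand beside these shares, and the lists were chosen with earlier results of these data known. Most changes were small, with a median absolute log2 fold change of 0.45 among the genes that passed, and 4 rose and 17 fell at least 2-fold. In 143 of the 147 the 4 Model libraries did not overlap the 4 Control libraries. Over all genes tested, all 4 Model libraries lay above all Control libraries in 5.95% and below them in 5.46%. The median log2 fold change of all genes was -0.01, and 47.3% were above 0. With offsets for each library's trend on GC content and transcript length 342 genes rose and 167 fell, and in DESeq2 428 rose and 264 fell, so the balance of directions depends on the scaling and the tool. The genes that passed were sensitive to single libraries, which is set out with the chaperones.

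**Figure D1:**
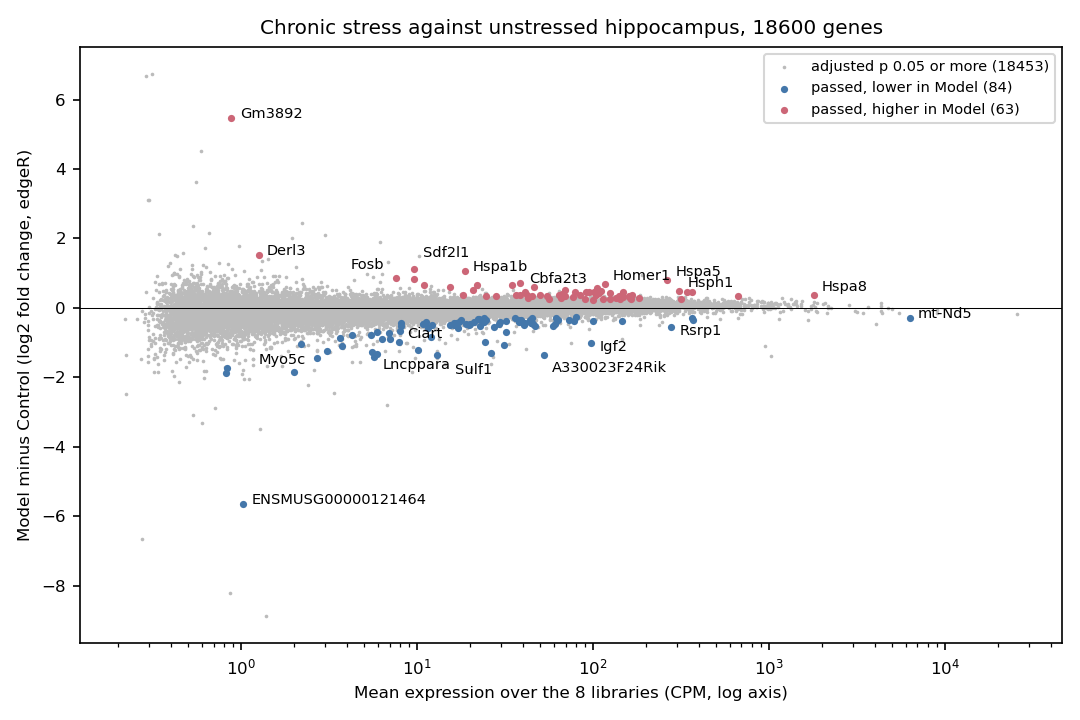
Each point is a gene, placed by its mean level over the 8 libraries (CPM, log axis) and its log2 fold change of Model over Control from edgeR. The 63 genes that rose and the 84 that fell are coloured, and most lie within 1 log2 unit of 0.

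Folding enzymes of the ER were higher. Of 29 measured members of the list of ER chaperones and folding enzymes, 10 rose and 0 fell, where 0.339% of all genes rose. The list's median log2 fold change was 0.22 and 24 of its members were positive. Hspa5, which encodes BiP, the central Hsp70 of the ER and the protein that holds the stress sensors inactive, lay at 189, 193, 211 and 174 CPM in Control and at 270, 288, 334 and 448 CPM in Model. The groups did not overlap, Model 4 was the highest, and the fold change was 0.81 ± 0.15 (adjusted p = 0.0219). Sdf2l1, a partner of ER DnaJ proteins, lay at 5.15 to 7.57 CPM in Control and at 10.0 to 19.6 CPM in Model (1.11 ± 0.20, adjusted p = 0.0212). Hsp90b1, the Hsp90 of the ER, went from 289 ± 18.9 to 397 ± 29.9 CPM (SD, n = 4 each; 0.46 ± 0.07, adjusted p = 0.0148). Both genes thus had every Model library above every Control library.

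The other members that rose cover the steps of folding. Dnajb11 delivers substrates to Hspa5 and rose by 0.35 ± 0.06, and Hyou1, its nucleotide exchange factor, by 0.46 ± 0.09. Calr, a lectin chaperone of glycoproteins that also binds calcium, rose by 0.44 ± 0.08. The disulfide isomerases Pdia4 and Pdia6 rose by 0.60 ± 0.13 and 0.58 ± 0.12. Creld2, another ER protein induced by misfolding, rose by 0.67 ± 0.13, and Manf, a small ER protein that is secreted under stress, by 0.67 ± 0.12. In Hspa5, Sdf2l1, Manf, Hyou1, Pdia4, Pdia6 and Creld2 alike the highest of the 8 libraries was Model 4. By the deposited FPKM, which are scaled by length, Hsp90b1 was at 114 in Control and 154 in Model, Hspa5 at 88.0 and 149, and Sdf2l1 at 7.26 and 15.6.

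Removal of misfolded proteins and the response's own regulators gave 3 genes that rose. Where 0.339% of all genes rose, 2 of 24 genes of ER-associated degradation rose and 0 fell. These were Derl3, a derlin of the channel through which proteins leave the ER, and Sel1l, the adaptor of the Hrd1 ubiquitin ligase (0.29 ± 0.06, adjusted p = 0.0295). Derl3 was low, at 0.534, 0.579, 0.931 and 0.572 CPM in Control, and lay at 1.25 to 2.66 CPM in Model, again highest in Model 4. Its fold change of 1.53 ± 0.32 (adjusted p = 0.0384) was the largest rise among the genes named by the rule. Of 14 sensors and factors of the unfolded protein response only Xbp1 passed, at 56.2, 56.6, 61.9 and 53.6 CPM in Control against 70.0, 72.7, 81.9 and 99.3 CPM in Model (0.51 ± 0.11, adjusted p = 0.0469). Atf6 differed by 0.15 ± 0.08 (adjusted p = 0.425), and Ern1, which encodes Ire1, by -0.14 ± 0.12 (adjusted p = 0.617).

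The Perk and Atf4 branch gave values near 0. Atf4 lay at 84.2 to 89.1 CPM in Control and 78.0 to 93.7 CPM in Model, a difference of 0.01 with a 95% interval of -0.13 to 0.14. Ddit3, which encodes the factor CHOP, differed by 0.03 (95% interval -0.24 to 0.29). Of 28 measured Atf4 targets 0 passed, 15 were positive and the median was 0.01. With the GC and length offsets 21 of the 28 were positive and the median was 0.05. Cars, Sars, Wars, Gars and Nars were listed but not found in the data under these symbols, so they are not among the 28. The median of 34 genes of ER translocation, glycosylation and export was 0.09 with 28 positive and 0 passed, of which Stt3b, a catalytic subunit of the oligosaccharyltransferase, had the smallest p (0.21 ± 0.06, adjusted p = 0.124). Whether the branches differ from each other was not tested.

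Promoters were searched for the ER stress response element, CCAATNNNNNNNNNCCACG, the site at which Atf6 and Xbp1 act with NF-Y, because the members that rose are its textbook genes. Of the 13 genes of these 3 lists that rose, 11 had a promoter in the RefSeq table (build GRCm38.p6, 250 bases before the transcription start to 50 after). The exact letters stood on either strand in 6 of the 11: Hspa5, Hsp90b1, Calr, Pdia6, Creld2 and Derl3. Of all 27025 gene symbols with a promoter, 0.137% held it. On the gene's own strand alone it stood in 3 of the 11, against 0.0777% of all symbols. Shown are the 250 bases before the start of 4 of these genes, read along the gene, with the outer CCAAT and CCACG of each match in capitals (ATTGG and CGTGG where it lies on the other strand).
Hspa5 promoter, chr2:34771840-34772089, plus strand: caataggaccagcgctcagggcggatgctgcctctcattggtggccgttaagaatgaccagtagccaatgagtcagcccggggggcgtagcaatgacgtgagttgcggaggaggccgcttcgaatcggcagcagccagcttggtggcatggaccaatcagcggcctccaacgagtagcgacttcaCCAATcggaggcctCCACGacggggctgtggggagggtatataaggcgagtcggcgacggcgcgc
Hsp90b1 promoter, chr10:86705445-86705694, minus strand: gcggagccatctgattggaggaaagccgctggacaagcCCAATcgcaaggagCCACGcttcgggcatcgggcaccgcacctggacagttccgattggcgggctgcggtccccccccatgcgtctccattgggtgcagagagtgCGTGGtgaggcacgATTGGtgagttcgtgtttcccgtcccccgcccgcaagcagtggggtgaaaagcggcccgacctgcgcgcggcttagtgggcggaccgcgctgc
Calr promoter, chr8:84846932-84847181, minus strand: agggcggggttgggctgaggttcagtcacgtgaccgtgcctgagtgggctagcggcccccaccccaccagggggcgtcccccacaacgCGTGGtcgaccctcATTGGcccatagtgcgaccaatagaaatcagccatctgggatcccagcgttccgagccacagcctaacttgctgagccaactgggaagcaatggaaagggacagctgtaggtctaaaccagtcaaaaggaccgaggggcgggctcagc
Derl3 promoter, chr10:75893148-75893397, plus strand: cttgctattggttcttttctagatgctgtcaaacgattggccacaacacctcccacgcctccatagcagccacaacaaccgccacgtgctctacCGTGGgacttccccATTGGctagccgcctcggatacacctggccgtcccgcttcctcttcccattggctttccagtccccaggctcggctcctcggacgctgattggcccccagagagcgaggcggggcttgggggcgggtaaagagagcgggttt
The match began 65 bases before the start in Hspa5, 162 in Calr and 156 in Derl3, and Hsp90b1 held 2 matches, at 212 and 107 bases. The letters were not in the windows of Sdf2l1, Pdia4, Dnajb11, Sel1l and Xbp1. A match describes the letters and not binding. List members that did not rise were not counted as a set, so the matches do not set the risen genes apart from their lists.

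Chaperones of the cytosol were higher too. Of 35 measured heat shock proteins and cochaperones 34 were positive, with a median of 0.24. Of these 35, 5 rose and 0 fell, where 0.339% of all genes rose. In several settings more passed: 17 in DESeq2, 15 with the GC and length offsets, 13 with only the 8 libraries and 18 with no filter. In the same order the ER list gave 12, 13, 11 and 13. In limma-voom 3 cytosolic and 9 ER members passed, and with the replicate block 5 and 10. Stip1, the cochaperone that links Hsp70 to Hsp90, had the smallest p of the cytosolic list. It lay at 128, 121, 128 and 120 CPM in Control against 180, 166, 161 and 180 CPM in Model (0.47 ± 0.06, adjusted p = 0.00794). Its values within each group were close together and Model 4 did not stand apart. Hsph1, an Hsp110 that exchanges the nucleotide of Hsp70, lay at 241 to 273 CPM in Control and at 339, 346, 344 and 415 CPM in Model (0.49 ± 0.08, adjusted p = 0.0155). Hspa8, the constitutive Hsp70 and a very abundant mRNA, went from 1570 ± 52.0 to 2028 ± 102 CPM, and St13, an Hsp70 cochaperone, from 130 ± 3.88 to 156 ± 9.45 CPM (SD, n = 4). The stress-inducible Hspa1b lay at 10.5 to 13.8 CPM in Control and at 21.0, 19.6, 22.7 and 37.6 CPM in Model (1.07 ± 0.22, adjusted p = 0.0424). Its neighbour and near-identical copy Hspa1a lay at 8.42 to 10.4 and at 12.6, 8.92, 15.1 and 20.0 CPM (0.55 ± 0.19, adjusted p = 0.180), and how reads were shared between the copies is uncertain. Among 17 subunits of the TRiC chaperonin and mitochondrial chaperones 0 passed, but 14 were positive and in 10 all Model libraries lay above all Control libraries, where 5.95% of all genes did. Hspd1, the mitochondrial Hsp60, differed by 0.23 ± 0.05 (adjusted p = 0.0618). Proteasome subunits had a median of -0.00 over 31 genes, with 0 passed. With the GC and length offsets 27 of the 31 were positive and the median was 0.08. With the choroid plexus covariate used below 12 were positive and the median was -0.05, so no direction holds for them.

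The counts of chaperones that passed depended on single libraries, and the sizes of several were smaller without Model 4. The 10 ER chaperones that rose became 0 without Control 1, without Control 2 or without Model 4, 1 without Model 3, 4 without Model 2 and 5 without Control 4. The 5 cytosolic ones became 1, 1 and 1, then 2, 2 and 3 in the same order. In the same fits the 147 genes that passed became 8, 8, 11, 13, 21 and 126, and they became 91 without Control 3 and 138 without Model 1. All 147 kept their direction in each of these fits, which their choice from these same libraries largely fixed in advance. In 143 of them the groups did not overlap, so leaving out 1 library could hardly reverse the difference. Without Model 4 the fold change of Hspa5 was 0.64 in place of 0.81, and that of Sdf2l1 0.86 in place of 1.11. Hspa1b was at 0.81 in place of 1.07, and Stip1 at 0.45 in place of 0.47. The median of the ER list was then 0.18 in place of 0.22. Over all 63 genes that rose it was 0.37 in place of 0.38. Cbfa2t3, Fosb, Stip1, Rsrp1, Nrbp2 and Lncppara passed in all 12 fits that left out 1 library. In 4 of these fits the library left out was a Treatment library, which is not among those compared. Over all alternatives the median of the ER list stayed between 0.17 and 0.25, and that of the cytosolic list between 0.20 and 0.28.

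**Figure D2:**
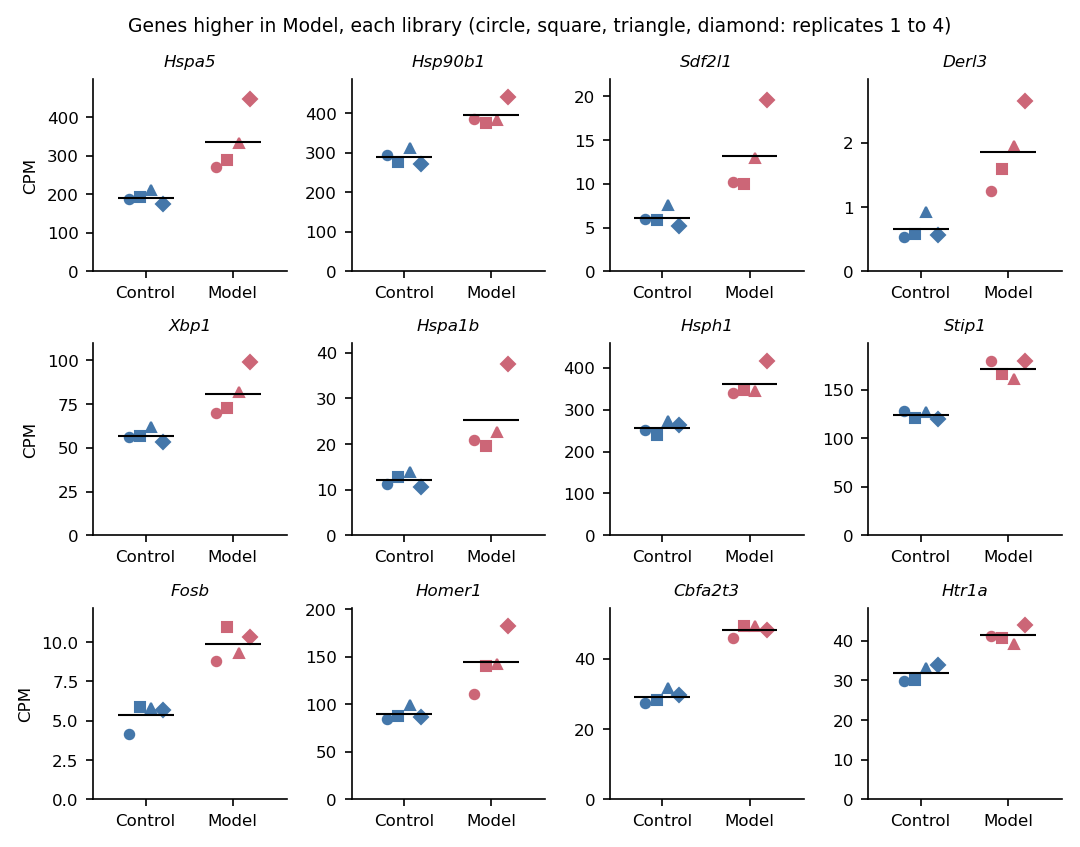
CPM of 12 genes that rose, for each library of Control and Model (symbols mark replicates 1 to 4, lines the group means, axes start at 0). In every panel the Model libraries lie above the Control libraries, and Model 4 is the highest in Hspa5, Sdf2l1 and Hspa1b but not in Cbfa2t3.

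RNA-binding proteins induced by mild cold moved the other way. Of 29 members of the list of cold-inducible RNA-binding proteins and splicing regulators 0 rose and 3 fell, where 0.452% of all genes fell, while the list's median was -0.04 and 13 members were positive. Cirbp lay at 51.4, 54.6, 48.6 and 56.1 CPM in Control and at 40.1, 38.7, 40.7 and 34.8 CPM in Model (-0.45 ± 0.08, adjusted p = 0.0212). Rbm3 lay at 84.5 to 90.9 CPM in Control and at 59.2 to 72.1 CPM in Model (-0.37 ± 0.07, adjusted p = 0.0212). Both mRNAs are known to rise on cooling and to fall with warming, and neither overlapped between the groups. Snrnp70, a protein of the U1 splicing particle, fell from 406 ± 15.1 to 329 ± 22.8 CPM. Rsrp1, a nuclear protein rich in arginine and serine outside this list, lay at 341, 319, 326 and 332 CPM in Control and at 233, 230, 215 and 228 CPM in Model. Its fall of 0.54 on the log2 scale (-0.54 ± 0.06, adjusted p = 5.39e-04) had the second smallest p of all genes.

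Neuronal activity genes rose in part. Among 26 AP-1 and other early transcription factors 2 rose and 0 fell, with a median of 0.11. Among 40 activity-regulated effectors 4 rose and 0 fell, with a median of 0.14, where 0.339% of all genes rose. The 4 effectors became 0 without Control 1, without Control 2 or without Model 2, 3 or 4. Fosb, whose truncated product is stable and builds up with repeated stimulation, lay at 4.18, 5.90, 5.82 and 5.68 CPM in Control and at 8.81, 11.0, 9.32 and 10.3 CPM in Model (0.87 ± 0.13, adjusted p = 0.0111). Egr3, a zinc finger factor, went from 92.0 ± 2.84 to 130 ± 17.8 CPM (SD, n = 4). In both genes all Model libraries were higher than all Control libraries.

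The effectors that rose act at or near the synapse. Homer1, a scaffold of the postsynaptic density, lay at 84.2, 87.3, 99.1 and 87.1 CPM in Control and at 111, 140, 143 and 182 CPM in Model (0.69 ± 0.14, adjusted p = 0.0316). Inhba, which encodes the activin A subunit, rose from 6.94 ± 0.700 to 12.3 ± 2.46 CPM (SD, n = 4). Nptx1, a pentraxin that gathers AMPA receptors, rose by 0.34 ± 0.06, and Syt4, a synaptotagmin of dense-core and postsynaptic vesicles, by 0.32 ± 0.06. The fast genes most used as marks of recent firing gave other values: Fos differed by 0.28 (95% interval -0.31 to 0.87), Egr1 by 0.03 (-0.18 to 0.25) and Arc by -0.15 (-0.39 to 0.09), none of them past the threshold. Npas4, a factor induced by calcium entry, lay at 10.5 to 12.3 CPM in Control and at 10.1, 7.00, 6.34 and 8.84 CPM in Model, with no overlap and without passing (-0.45 ± 0.19, adjusted p = 0.256). Bdnf, the neurotrophin most studied in depression, was at 38.7 ± 3.24 and 38.7 ± 7.34 CPM (SD, n = 4 each; 95% interval of the log2 fold change -0.25 to 0.26). The cAMP response element TGACGTCA, a palindrome, was in 0 of the 3 promoters present in the table (Fosb, Homer1 and Inhba), against 2.03% of all symbols.

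Hormone and clock genes were next. Of 30 corticosteroid receptors and glucocorticoid-responsive genes 0 passed, with a median of 0.08. The glucocorticoid receptor Nr3c1 differed by 0.10 (95% interval -0.05 to 0.25) and the mineralocorticoid receptor Nr3c2 by 0.06 (-0.14 to 0.25). Fkbp5, a cochaperone of the receptor and a standard readout of glucocorticoids, lay at 47.5 to 64.4 CPM in Control and 62.2 to 73.9 CPM in Model (0.23 ± 0.08, adjusted p = 0.199). Sgk1 and Tsc22d3, other textbook targets, differed by -0.02 ± 0.07 and 0.03 ± 0.09. Of 21 clock genes 2 fell, where 0.452% of all genes fell. Dbp, an output factor of the clock, lay at 71.7, 68.9, 66.7 and 73.3 CPM in Control and at 37.6, 48.9, 53.6 and 53.4 CPM in Model (-0.54 ± 0.12, adjusted p = 0.0473). Ciart, a repressor in the clock, lay at 8.38 to 12.8 CPM in Control and at 4.18 to 6.76 CPM in Model (-0.98 ± 0.22, adjusted p = 0.0475), while Per1, a further output of light and hormone signals, differed by -0.24 ± 0.09 (adjusted p = 0.212). The labels give no hour of collection.

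Transmitter systems changed in single genes. Htr1a, the inhibitory serotonin 1A receptor, lay at 29.9, 30.1, 33.1 and 33.8 CPM in Control and at 41.2, 40.7, 39.2 and 44.1 CPM in Model (0.38 ± 0.06, adjusted p = 0.0183). It was the 1 of 16 serotonin genes that rose, and the median of the list was 0.20. Homer1 was the 1 of 38 glutamate receptor and scaffold genes that rose, and 32 of them were positive with a median of 0.07. Of 23 GABA genes 0 passed and 19 were positive, with a median of 0.08, and the GABA-synthesising enzyme Gad1 lay 0.23 ± 0.06 higher (adjusted p = 0.104). Drd5, a dopamine receptor, differed by 0.51 ± 0.14 (adjusted p = 0.0827) with no overlap between the groups. Syt4 was the 1 of 28 presynaptic genes that rose.

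The median long noncoding RNA was lower in Model, but falls that passed were no more frequent in this class than among all genes. Of 3033 tested 10 fell and 1 rose, where 0.452% of all genes fell, 33.0% lay above 0 and the median was -0.13. Of 14689 protein-coding genes 51.0% lay above 0 and the median was 0.00. With the GC and length offsets the shares were 39.1% and 60.8%. Among those that fell, 2 are hosts of microRNAs, which was noticed after their values were seen. Lncppara, whose RefSeq span (chr15:85703773-85707524, GRCm38.p6) holds the hairpins of let-7b and let-7c-2, lay at 9.56, 6.30, 9.20 and 8.14 CPM in Control and at 3.69, 2.37, 3.50 and 2.83 CPM in Model (-1.41 ± 0.17, adjusted p = 0.00321). A330023F24Rik (chr1:195017399-195037908, GRCm38.p6), which holds those of miR-29b-2 and miR-29c, lay at 54.7 to 100.1 CPM in Control and at 26.0 to 33.4 CPM in Model (-1.37 ± 0.21, adjusted p = 0.0148). Neither transcript overlapped between the groups.

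The mature microRNAs of these hosts are shown to identify the families, with the seed (bases 2 to 8) in capitals, from RefSeq.
miR-29b-3p: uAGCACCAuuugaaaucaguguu
miR-29c-3p: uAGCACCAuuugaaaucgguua
let-7b-5p: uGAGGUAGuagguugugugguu
let-7c-5p: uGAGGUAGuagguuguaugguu
Within each host the shown microRNAs share 1 seed, AGCACCA in the miR-29 family and GAGGUAG in the let-7 family. Poly(A) libraries read the host transcript and not the mature microRNA, so its level is not known. Over all 26 tested long noncoding RNAs that hold a hairpin on their own strand, 23 were negative with a median of -0.21, 2 fell and 0 rose, where 0.452% of all genes fell. In 7 of the 26 all Model libraries lay below all Control libraries, where 5.46% of all genes and 161 of the 3033 long noncoding RNAs did. Meg3, an abundant imprinted RNA, lay at 4377 to 4991 CPM in Control and at 4118, 3354, 2987 and 3163 CPM in Model (-0.47 ± 0.12, adjusted p = 0.0807).

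**Figure D3:**
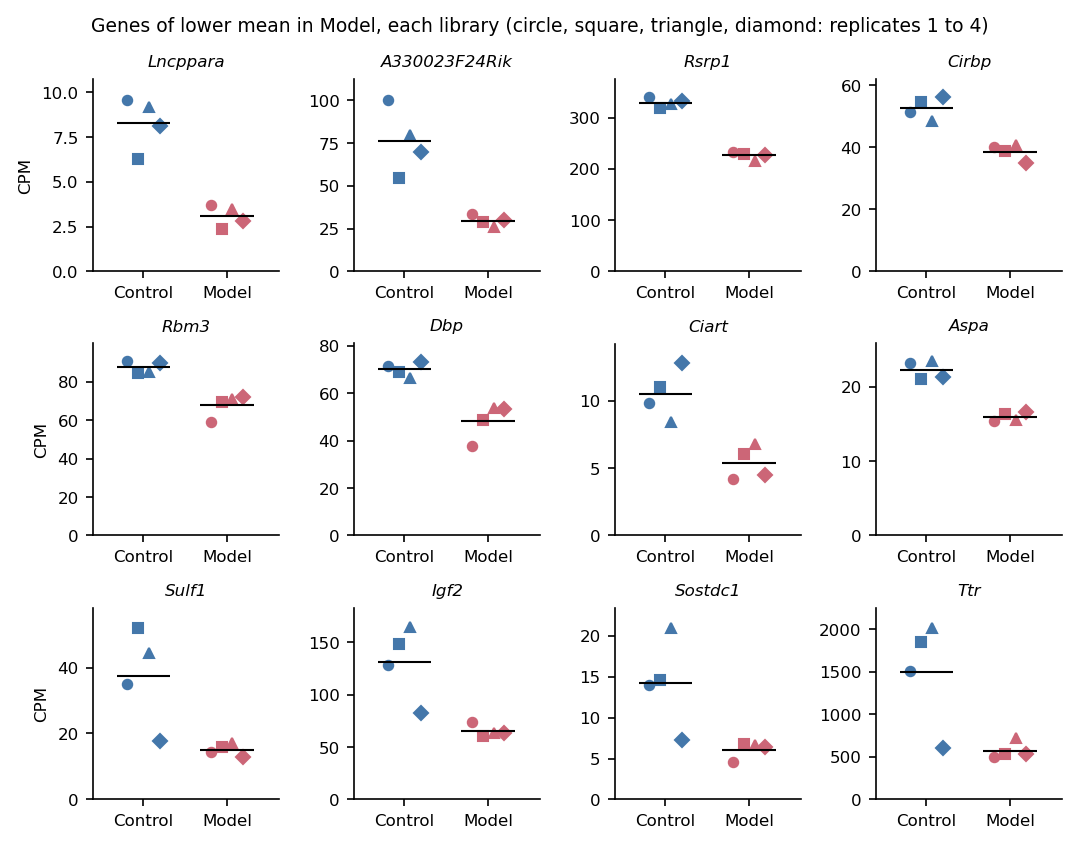
CPM of 12 genes with a lower mean in Model, for each library of Control and Model (symbols mark replicates 1 to 4, lines the group means, axes start at 0). All but Ttr fell, and in Sulf1, Igf2, Sostdc1 and Ttr Control 4 lies near the Model libraries while Control 1, 2 and 3 are high.

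Choroid plexus genes had the largest list median. The choroid plexus is the epithelium in the ventricle beside the hippocampus that makes cerebrospinal fluid. All 27 measured markers were negative, with a median of -1.14, and 2 fell: Abca4 (-1.35 ± 0.29, adjusted p = 0.0454), whose groups overlapped, and Sostdc1 (-1.21 ± 0.26, adjusted p = 0.0469). That count depended on the libraries and the tool: 18 fell without Control 4, and 0 without any other single Control or Model library. In limma-voom 0 fell, in DESeq2 15 and with the replicate block 18, while the median without 1 library lay between -1.41 (without Control 4) and -0.94 (without Control 3). The summed level of the 27 markers was 2077, 2581, 2771 and 895 CPM in Control and 757, 819, 1073 and 788 CPM in Model. Control 4 thus lay within the range of Model, and the other Control libraries lay above it. Ttr, the transthyretin mRNA, lay at 1513, 1853, 2015 and 600 CPM in Control and at 497, 537, 725 and 533 CPM in Model (-1.38 ± 0.36, adjusted p = 0.0820). Its value was 0.08 once the mean score of the 27 markers entered the fit. Ttr is itself among those 27, so a value near 0 was partly built in, and the median of the 27 was then 0.02. Here as in all bulk tissue, fewer cells of a type and less RNA per cell cannot be told apart.

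Several other falls had the same order of libraries. Sulf1, an extracellular sulfatase, lay at 35.1, 51.9, 44.4 and 17.7 CPM in Control and at 12.8 to 17.1 CPM in Model (-1.30 ± 0.26, adjusted p = 0.0316). Igf2, a growth factor made by choroid plexus and meninges, lay at 128, 149, 165 and 82.7 CPM and at 60.5 to 73.8 CPM (-1.0 ± 0.18, adjusted p = 0.0212). Igfbp2 and Col9a3 fell by 1.07 and 0.98 on the log2 scale, also with Control 4 lowest of the Control libraries. With the choroid plexus score of each library as a covariate, the fold change of Sulf1 was -0.33, of Igf2 -0.38 and of Sostdc1 -0.29, while that of Hspa5 was 0.92, of Fosb 0.92, of Lncppara -1.45 and of Rsrp1 -0.59. Sostdc1 is itself among the markers of the score used in this fit, while Sulf1 and Igf2 are not. In that fit 2 genes passed, and the median was 0.38 over the 63 genes that had risen and -0.45 over the 84 that had fallen, against 0.38 and -0.48 without the covariate. Because 3 of the 4 Control libraries lie above every Model library in the score, the score and the group cannot be fully told apart.

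Matrix, meningeal and ciliary lists had negative medians. Over all genes 0.452% fell. Of 31 genes of basement membrane and matrix 4 fell, Sulf1, Col9a3, Nid2 and Col4a5, and 26 were negative with a median of -0.29. With the choroid plexus covariate the median was -0.09, 13 were positive and 0 passed, in a fit where only 2 of all genes tested did. The 4 became 0 without Control 1, 2 or 3 or Model 2, 3 or 4, and 1 without Model 1. Col4a5, a chain of collagen IV, lay at 6.62 to 8.38 CPM in Control and at 4.42 to 4.63 CPM in Model (-0.69 ± 0.13, adjusted p = 0.0212), without the drop in Control 4. In the list of leptomeningeal and fibroblast markers 3 of 24 fell, among them Slc6a20a, a proline transporter (18.0 ± 0.981 to 12.9 ± 0.915 CPM). That list's median was -0.19 with 19 negative, and with the covariate it was -0.25 with 21 negative. Its score was highest in Control 4 (0.24), the Control library lowest in choroid plexus markers. Of 7 erythroid genes Hbb-bt, a beta globin, fell by 0.84 on the log2 scale. Of 17 ependymal cilia markers 0 passed and all were negative, with a median of -0.38, and with the covariate their median was 0.16. Itm2a was the 1 of 21 endothelial markers that fell (-0.31 ± 0.07, adjusted p = 0.0441), and the median of that list was 0.04.

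**Figure D4:**
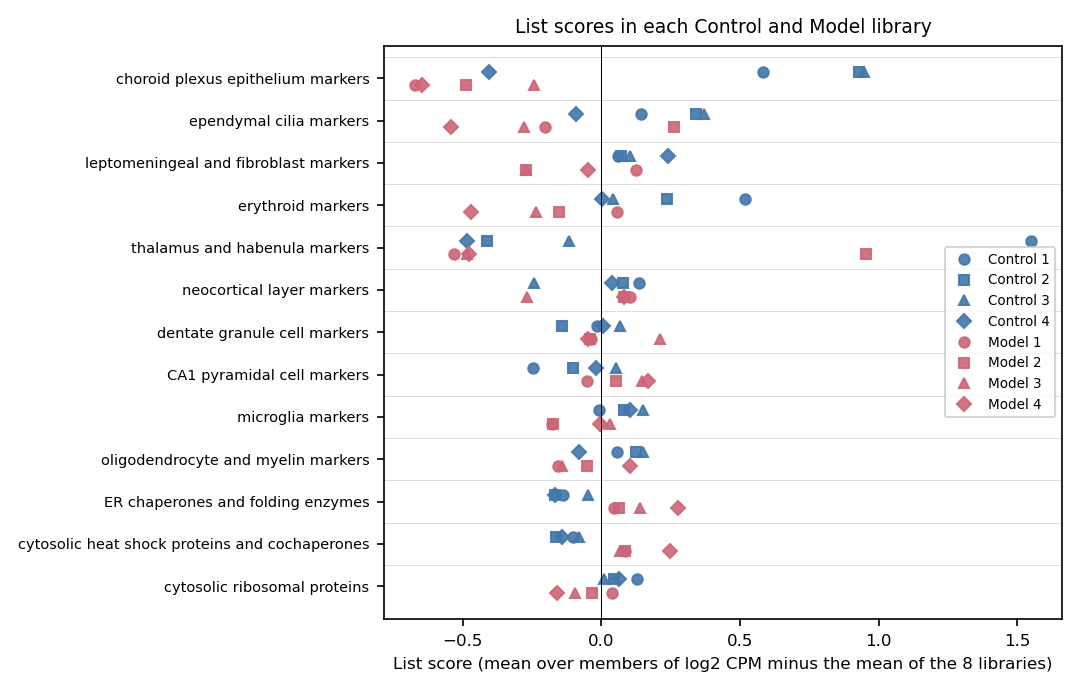
Score of 13 gene lists in each library, as the mean over members of log2 CPM minus the gene's mean over the 8 libraries. Control 4 lies with Model for choroid plexus markers, Control 1 (1.55) and Model 2 (0.95) lie apart for thalamus and habenula markers, and the groups do not overlap for either chaperone list.

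Microglia and immune genes were low or near 0. Of 26 measured cytokines, chemokines and innate sensors 0 rose and 1 fell, Il33, an alarmin of oligodendrocytes and astrocytes (46.4 to 52.1 CPM in Control, 34.6 to 42.9 CPM in Model; -0.34 ± 0.07, adjusted p = 0.0474). The inflammatory cytokines Il1b, Il6 and Tnf did not pass the filter on low counts, with at most 13, 3 and 3 counts in any library of these groups. Nlrp3, the sensor of the inflammasome, differed by 0.37 (95% interval -0.25 to 0.99). Of 20 microglia markers 0 passed and 2 were positive, with a median of -0.13, and Aif1, which encodes Iba1, lay at 3.0 to 3.52 CPM in Control and at 1.56 to 2.48 CPM in Model (-0.66 ± 0.20, adjusted p = 0.127). Antigen presentation genes had a median of -0.20 with 2 of 21 positive and 0 passed. With the GC and length offsets 6 of these 21 were positive. Cd46, a complement regulator, fell (-0.47 ± 0.08, adjusted p = 0.0212), and so did Tgtp1, an interferon-induced GTPase, from 2.94 ± 0.361 to 1.44 ± 0.0839 CPM.

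Glia gave a few clear genes within lists of small shifts. Of 25 oligodendrocyte and myelin markers 2 fell, where 0.452% of all genes fell, and 3 were positive, with a median of -0.12. Aspa, which cleaves N-acetylaspartate in oligodendrocytes, lay at 23.2, 21.1, 23.5 and 21.3 CPM in Control and at 15.3, 16.4, 15.6 and 16.6 CPM in Model (-0.48 ± 0.08, adjusted p = 0.0169), and Opalin, a protein of the myelin sheath, went from 34.2 ± 3.07 to 25.5 ± 1.87 CPM. Mbp, the myelin basic protein mRNA, differed by -0.16 ± 0.07 (adjusted p = 0.311), and the lineage factor Sox10 by -0.01 ± 0.09. With the choroid plexus covariate 16 of the 25 were positive and the median was 0.03. Aspa was then at -0.45 in place of -0.48 and no longer passed, in a fit where only 2 of all genes tested did. Of 20 astrocyte markers 0 passed, with a median of -0.05, and Gfap differed by -0.11 ± 0.09.

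Markers of hippocampal fields leaned upward. For CA1 the median was 0.17, with 14 of 16 markers above 0 and 0 passed. The CA1 scores of the groups overlapped, at -0.25 to 0.05 in Control and -0.05 to 0.17 in Model, and so did the granule cell scores. Of 21 granule cell markers 15 were positive, and 2 rose, the cation channel Trpc6 (17.3 ± 2.11 to 24.4 ± 1.68 CPM) and the neuronal factor Neurod2 (142 ± 14.9 to 179 ± 11.6 CPM). In the same list Pla2g4e, a phospholipase that makes precursors of endocannabinoids, fell: it lay at 8.50, 8.58, 5.12 and 9.36 CPM in Control and at 3.51, 2.81, 4.29 and 2.49 CPM in Model (-1.27 ± 0.26, adjusted p = 0.0337). The granule cell score of Model 3 stood above the others (0.21), and without that library the median of the list was 0.03 in place of 0.09. Of 18 genes of adult neurogenesis 0 passed, and Dcx, which marks young neurons, lay at 39.1 to 45.3 CPM in Control and at 34.6 to 37.7 CPM in Model (-0.21 ± 0.11, adjusted p = 0.355). Thalamus and habenula markers had a median of -0.44 with 0 of 17 passed, and the median was 0.20 without Control 1. Without Control 1 and Model 2 together Hspa5 differed by 0.87 and Cbfa2t3 by 0.69, and 2 genes passed.

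Ribosomal and mitochondrial transcripts were lower by little. All 79 ribosomal protein genes were negative, with a median of -0.12 and 0 passed, but with the GC and length offsets 33 of the 79 were positive and the median was -0.01. Of 13 mitochondrially encoded mRNAs 1 fell, mt-Nd5, a subunit of complex I, at 6847 to 7051 CPM in Control and 5338 to 5927 CPM in Model (-0.30 ± 0.05, adjusted p = 0.0183). The list's median was -0.16, and -0.04 with the offsets. The mitochondrial genome took 7.84% to 8.38% of the counts in Control and 7.14% to 7.51% in Model, without overlap. Nuclear-encoded subunits of the respiratory chain had a median of -0.03 with 21 of 59 positive, and 0.06 with 52 of 59 positive after the offsets, so no direction holds for them. The median of 27 genes of cholesterol synthesis and uptake was -0.09 with 24 negative, and 2 fell, one of them Lss, which closes the sterol rings (43.2 ± 2.59 to 32.8 ± 0.971 CPM).

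**Figure D5:**
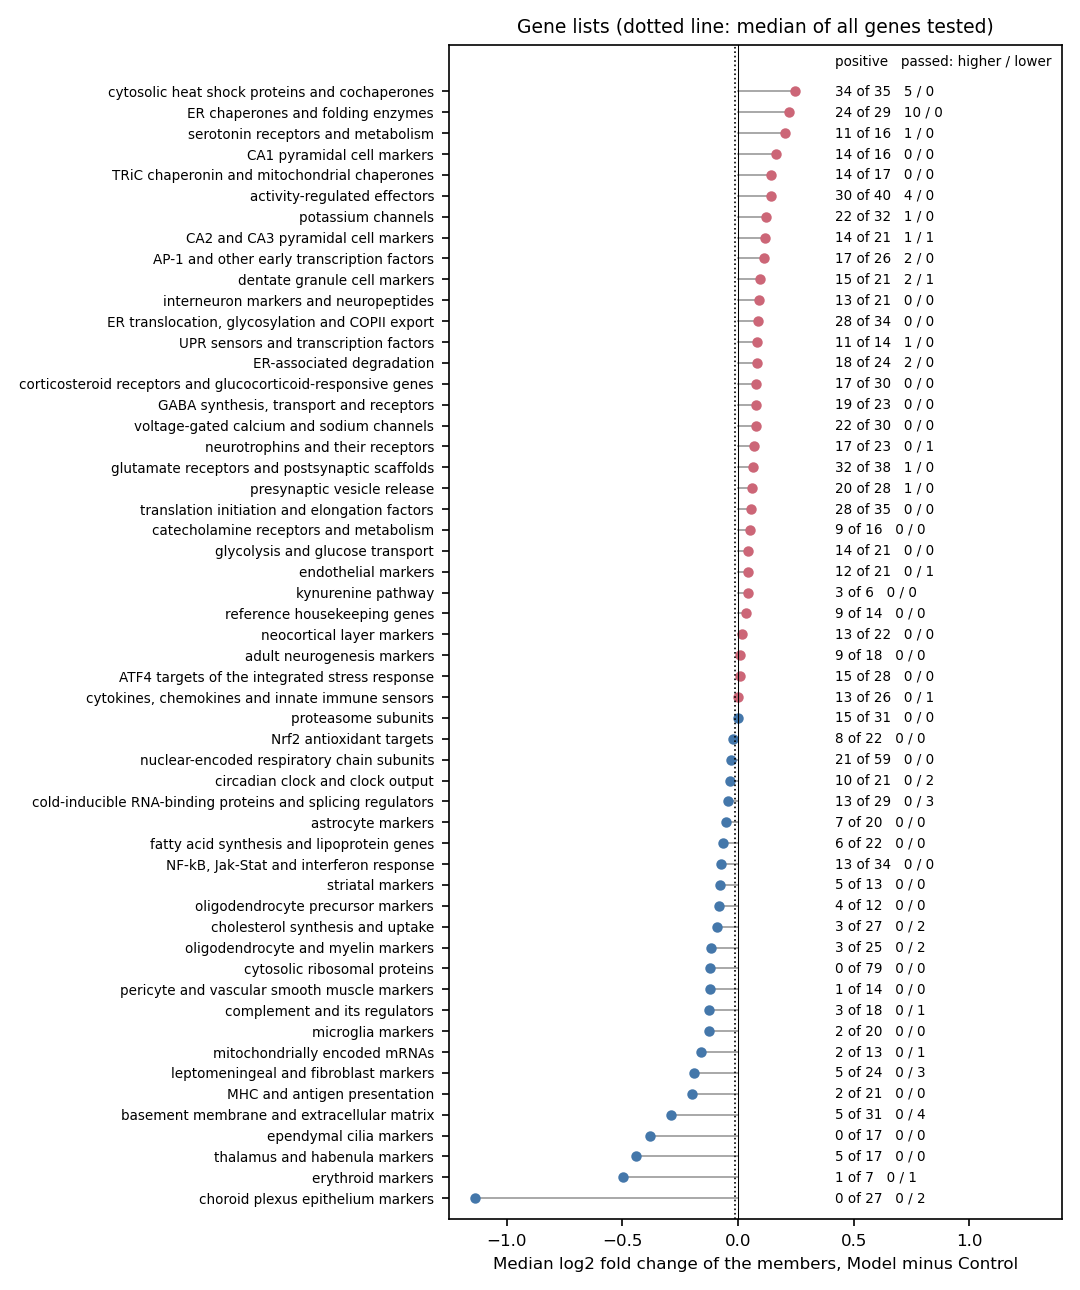
Median log2 fold change of Model over Control for each of the 54 gene lists, with the number of positive members of those tested and the numbers that rose and fell. The dotted line is the median of all genes (-0.01), and the chaperone lists (0.24 and 0.22) and the choroid plexus list (-1.14) are at the ends.

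In the lists not yet described, a rise or fall was rare. Nptx1 and Sostdc1 were the 1 gene that rose and the 1 that fell among 21 markers of CA2 and CA3, and Igf2 was the 1 of 23 neurotrophin genes that fell. Ntrk2, the receptor of Bdnf, differed by 0.08 (95% interval -0.05 to 0.21). In the lists of Nrf2 targets, NF-kB and interferon genes, interneuron markers, catecholamine genes, the kynurenine pathway, neocortical and striatal markers, precursors of oligodendrocytes, pericytes, translation factors, glycolysis, fatty acid synthesis and calcium and sodium channels 0 genes passed. Gpd1, a glycerol phosphate dehydrogenase known to rise with glucocorticoids, was the nearest gene of the hormone list (0.26 ± 0.06, adjusted p = 0.0523). Bcl11b, a factor of deep cortical layers that granule cells also express, lay 0.39 ± 0.09 higher (adjusted p = 0.0600), and Scn2b, a sodium channel subunit, 0.22 ± 0.05 higher (adjusted p = 0.0536). Ifit3, a gene induced by interferon, differed by -0.48 ± 0.15 (adjusted p = 0.140), and Pdgfra, which marks oligodendrocyte precursors, by -0.26 ± 0.08 (adjusted p = 0.110). Tdo2, which opens the kynurenine pathway, differed by -0.16 (95% interval -0.48 to 0.16), and Slc7a11, a cystine transporter among the Atf4 targets, by 0.18 ± 0.07 (adjusted p = 0.197). The 14 reference housekeeping genes had a median of 0.04.

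Some genes that passed belong to no group above. Cbfa2t3 and Nrbp2 passed in all 12 fits that left out 1 library. Atcayos passed in 9 of them, Rasl10a and Myo5c in 8 and Wnt9a in 6. Of the 12 fits, 4 left out a Treatment library, which is not among those compared. All 147 genes passed without Treatment 1 and without Treatment 3, so these counts include fits that every gene passed. Cbfa2t3, also called Eto2, a corepressor of transcription on chromosome 8, had the smallest p of all: 27.5, 28.2, 31.7 and 29.7 CPM in Control against 46.0, 49.3, 49.5 and 48.3 CPM in Model. The change was 0.72 ± 0.06 (95% interval 0.60 to 0.85, adjusted p = 4.00e-05), the groups lay far apart, and no library stood out. Rasl10a, a small GTPase of the Ras family, rose from 17.2 ± 1.47 to 26.8 ± 1.95 CPM (SD, n = 4). Nrbp2, a pseudokinase, lay at 160 to 169 CPM in Control and at 120 to 133 CPM in Model (-0.37 ± 0.05, adjusted p = 0.00794). Myo5c, a class V myosin of epithelia, fell by 1.44 on the log2 scale, from 3.94 ± 1.05 to 1.45 ± 0.112 CPM. Wnt9a, a Wnt ligand, fell by 0.90, from 9.16 ± 1.21 to 4.90 ± 1.35 CPM. Atcayos, a noncoding transcript antisense to Atcay, fell by 1.09, and since the labels do not say whether strand was kept, its reads cannot be told apart from those of Atcay.

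The largest fold changes among the genes that passed belong to a pair of gene models and are reported as uncertain, after their values were seen. Gm3892 lies on chromosome 4 at 42055143 to 42089708 and ENSMUSG00000121464 on the same chromosome at 42552478 to 42587038 (GRCm39). Gm3892 was at 0.0971, 0, 0 and 0.0409 CPM in Control and at 2.22, 1.54, 0.792 and 2.36 CPM in Model. ENSMUSG00000121464 was at 2.09, 3.04, 1.16 and 1.84 CPM in Control and at 0.133, 0, 0 and 0 CPM in Model. The pair are thus mirror images, with similar levels in the group where each is present, in a part of chromosome 4 known for near-identical gene copies. Whether reads moved between copies was not tested.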

How the data were processed

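Poly(A) RNA-seq of hippocampus was used from 4 Control and 4 Model libraries. The 4 Treatment libraries shared in the filter, the scaling and the estimate of the spread, and in the slope of the choroid plexus covariate. The tools named, per the submitters' processing notes, are STAR 2.7.10a, Salmon 1.10.1, FastQC 0.12.1 and, for trimming, cutadapt 3.4 and Trim Galore 0.6.7. The build they name is GRCm39 (mm39). The strand setting of the counting is not given in the sources used here. The authors deposited estimated counts per gene, not all of them whole, and FPKM scaled by length. FPKM served only to describe levels per length, in no test.

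Estimated counts of 78298 genes were rounded to whole numbers, filtered with edgeR's filterByExpr (18600 tested), scaled by TMM and tested with edgeR's quasi-likelihood test (edgeR 4.0.16, limma 3.58.1, R 4.3.3). The biological coefficient of variation was 10.7%. CPM use the scaled library size, and the totals of 17083260 to 27479083 estimated counts set their precision. The fit was tested on simulated data of the same size. The threshold was 0.05 on the p adjusted by Benjamini and Hochberg. Alternatives (DESeq2 1.42.0, limma-voom, other scalings and filters, a replicate block, left-out libraries) have their effect in the closing section. For the GC and length offsets each gene was given the values of its longest GENCODE transcript, found for 93.3% of tested genes.

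The lists and the named genes were chosen with earlier results of these data known. Named are the 12 largest changes in each direction among genes that passed without overlap at a mean of at least 1 CPM (clone names skipped), the 5 of smallest p, up to 4 passed members per list by p, or the 1 of smallest p where none passed, and a fixed set of stress, immune and glial genes. Not every gene so selected is printed, and some are not reported here. Genes outside the rule were chosen after their values were seen (A330023F24Rik, Meg3, Gm3892, ENSMUSG00000121464, Prox1, Wfs1, Per1, Sox10, Hsph1, Calr and others given as list members). Promoters were searched for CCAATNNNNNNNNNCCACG, the heat shock element and TGACGTCA on both strands. The heat shock element was in 1 of the 3 cytosolic chaperone genes with a promoter (Hsph1, after the start), against 0.662% of symbols.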

Additional observations from a re-analysis of the deposited data

Results flagged for a closer look

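In 26 of 322 groups of 4 libraries looked at (8.07%), over named genes and list scores, 1 library stood apart from the other 3 by Dixon's criterion, which chance meets in about 1 of 20 groups.

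Model 4 was apart on the high side in chaperones: Hsp90b1 at 441 CPM, Hsph1 at 415, Creld2 at 15.96 and Dnajb11 at 53.9, and the score of cytosolic heat shock proteins was 0.249 against 0.0685 to 0.0860 in the other Model libraries. Mbp was at 3578 CPM in the same library. Model 1 was low in Sostdc1 (4.58 CPM) and in the serotonin score (-0.0746), and high in Hbb-bt (10.9 CPM). Model 3 had the highest dentate granule cell score (0.21) and the lowest neocortical score (-0.27), and Model 2 the highest thalamus and habenula score (0.95) of the Model libraries.

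Among Control libraries, Control 3 was high in Derl3 (0.931 CPM), Creld2 (9.84), Siglech (16.1), Opalin (38.8) and Trpc6 (20.5). Control 1 was low in Fosb (4.18 CPM) and high in Tsc22d3 (57.1), in Ramp3 (17.2), in the catecholamine score (0.23) and in the kynurenine score (0.22). Control 2 was low in Inhba (5.90 CPM) and in the score of cold-inducible and splicing genes (-0.0290). Control 4 was high in Dnajb11 (41.9 CPM) and Npas4 (12.3). For Fosb, Inhba, Creld2, Derl3, Trpc6 and Opalin the library that stood apart did not make the groups overlap.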

How the results depend on the processing

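The count of genes that passed moved widely with the setting, while all 147 kept their sign in each setting that tested them (141 at the filter of at least 1 CPM). The 147 were chosen for passing in these libraries, and in 143 the groups did not overlap, so a kept sign was largely fixed in advance. The count was 692 in DESeq2 (428 higher, 264 lower), 88 in limma-voom (43 and 45), 783 with no filter (366 and 417) and 452 with only the 8 libraries (219 and 233). Leaving out 1 library gave 8 to 273 in all, 3 to 144 higher and 5 to 129 lower, with 8 without Control 1 or Control 2, 91 without Control 3, 21, 13 and 11 without Model 2, 3 and 4, and 273 without Treatment 3. With the replicate block 228 passed (95 and 133). Same-numbered Control and Model libraries correlated at 0.0140, -0.00690, 0.0891 and 0.0464, and those of unlike number at -0.125 to 0.0670. With 4 libraries per group these values cannot decide whether a shared number stands for a pairing. Chosen after seeing the data were the fit without Control 1 and Model 2 together, with 2 passed (1 and 1), the GC and length offsets, with 509 (342 and 167), and the choroid plexus score as a covariate, with 2 (1 and 1). On the gene's strand alone 3 promoters held the ER element. The cause of these moves was not tested.

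Values near 0 changed sign. Without 1 library the ranges were -0.0653 to 0.546 for Fos, -0.0702 to 0.104 for Egr1, -0.109 to 0.110 for Bdnf, -0.0294 to 0.0639 for Atf4, -0.0218 to 0.100 for Ddit3, -0.0291 to 0.144 for Nr3c2, -0.0475 to 0.0966 for Tsc22d3 and -0.0434 to 0.00783 for Sgk1. Bdnf was -0.0117 in limma-voom, -0.00716 with the replicate block, -0.00592 with the offsets and -0.198 with the covariate. Sgk1 was 0.0197 with the offsets and 0.0322 with the covariate. With the covariate Egr1 was -0.0752 and Atf4 -0.0610. Arc was 0.00642 without Control 1 and Model 2 together. A large difference also changed sign: Ttr was -1.38, and 0.0839 with the covariate. Ttr is among the markers that make up the covariate, so its value near 0 there was partly built in.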
